A study of Mus musculus with 12 samples.

Results

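The subunits of respiratory complex I encoded in the nucleus were followed in mouse brown adipose tissue (BAT), the fat depot that makes heat. They were taken as every gene of the deposited count table whose symbol is Nduf followed by a, b, c, s or v and a number, plus Ndufab1, and 37 of the 24197 genes in the table matched. All 37 passed the filter on low counts and were among the 15265 genes tested, with at least 1730 counts (the lowest, of Ndufb4) in every library. The study set out to describe how Ebf2 mutant BAT differs from control BAT at each temperature. Libraries labelled mutant came from animals with Adipoq-Cre and floxed Ebf2 alleles (Adipoq-Cre+; Ebf2 fl/fl), and libraries labelled control from animals with the same floxed alleles and no Cre (Adipoq-Cre-; Ebf2 fl/fl). Animals were 8 to 10 weeks old and were kept at room temperature or for 1 week at 4 degrees, so there were 4 groups of 3 libraries: mutant and control at room temperature, and mutant and control in the cold. Adipoq-Cre is active in adipocytes, so other cells of the tissue keep Ebf2, a transcription factor of brown fat, and the control animals carry the floxed alleles too. Whether replicates came from separate animals is not in the labels, and p-values then measure only the spread among these libraries, which may be technical.

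Complex I is the entry point of the respiratory chain. Its NADH dehydrogenase (N) module takes electrons from NADH, iron-sulphur clusters carry them to the ubiquinone-binding (Q) module, and the membrane arm (here a proximal and a distal pump part) moves protons out of the matrix. Brown fat holds many mitochondria, and its uncoupling protein Ucp1 lets those protons flow back as heat. Only the catalytic core of the enzyme is conserved from bacteria; the other nuclear-encoded subunits are accessory proteins that stabilise it or help it assemble. Among the 37 members, 7 are core subunits; by position, 10 belong to the N module, 6 to the Q module, 9 to the proximal and 10 to the distal part of the membrane arm. Of the remaining members, Ndufab1 is the mitochondrial acyl carrier protein, and Ndufa4 keeps a complex I symbol although the protein is now assigned to complex IV (cytochrome c oxidase).

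The region before the start of a gene is where factors that drive respiratory genes bind. The stretches of 5 members named in the results below are printed here so that they can be read beside the values. RefSeq gives a window (250 bases before to 50 after a start, GRCm38.p6) for 33 of the 37 members, in 35 windows. The palindromic NRF1 motif (GCGCA, any base, GCGC), searched on both strands, was in 22.9% of the 35 member windows and in 4.6% of all 32851 windows. The 7 members with it were Ndufa5, Ndufa6, Ndufa8, Ndufa11, Ndufb4, Ndufs5 and Ndufs6. The 2 windows of Ndufa5 overlap and hold the same match, which is counted in both. The YY1 motif (AA, any base, ATGGCGG) was in 11.4% of member windows (Ndufa9, Ndufs4, Ndufs6 and Ndufs7) against 1.36% of all, and the cyclic AMP response element TGACGTCA in 8.57% (Ndufa10, Ndufa11 and Ndufb2) against 1.79%. The motifs of the estrogen-related receptors, TNAAGGTCA (2.86% against 1.28%), and of the ETS family, ACCGGAAGT (2.86% against 1.1%), were in 1 member window each, and that of the EBF family (TCCC, 2 bases of any kind, GGGA) in 0% against 0.904%. These are matches of letters on both strands, not binding sites. The 250 bases before the start follow for 5 members, on the strand of the gene, with matches in capitals. Ndufb8 (chr19:44555443-44555692, minus strand) and Ndufv2 (chr17:66101560-66101809, minus strand) hold none of the 6 motifs. Ndufa8 (chr2:36049339-36049588, minus strand) and Ndufa5 (chr6:24527527-24527776, minus strand, the first of its 2 windows) hold an NRF1 match. The stretch printed for Ndufa5 runs past the start that its other window precedes, so part of it is transcribed from that start. Ndufa11 (chr17:56717512-56717761, plus strand) holds the cyclic AMP response element and then an NRF1 match. Ndufs8, Ndufb7, Ndufs3, Ndufb6 and Ndufab1, also higher in cold mutants below at an adjusted p below 0.05, are not printed. They hold none of the 6 motifs in the 250 bases before the start.
Ndufb8: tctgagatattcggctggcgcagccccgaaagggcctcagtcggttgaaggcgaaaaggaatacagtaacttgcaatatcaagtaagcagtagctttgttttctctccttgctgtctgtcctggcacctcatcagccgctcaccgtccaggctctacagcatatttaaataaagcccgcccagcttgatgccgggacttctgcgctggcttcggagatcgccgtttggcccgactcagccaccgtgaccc
Ndufv2: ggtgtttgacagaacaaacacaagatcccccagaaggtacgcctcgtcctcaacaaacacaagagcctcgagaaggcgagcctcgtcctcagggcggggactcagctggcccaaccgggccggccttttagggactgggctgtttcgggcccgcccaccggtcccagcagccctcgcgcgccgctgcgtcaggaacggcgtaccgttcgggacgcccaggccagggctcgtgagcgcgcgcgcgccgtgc
Ndufa8: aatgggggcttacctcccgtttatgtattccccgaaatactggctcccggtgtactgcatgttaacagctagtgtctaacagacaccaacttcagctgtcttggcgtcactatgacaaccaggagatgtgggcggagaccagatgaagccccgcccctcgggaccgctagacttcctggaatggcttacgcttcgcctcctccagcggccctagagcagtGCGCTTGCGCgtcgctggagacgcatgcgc
Ndufa5: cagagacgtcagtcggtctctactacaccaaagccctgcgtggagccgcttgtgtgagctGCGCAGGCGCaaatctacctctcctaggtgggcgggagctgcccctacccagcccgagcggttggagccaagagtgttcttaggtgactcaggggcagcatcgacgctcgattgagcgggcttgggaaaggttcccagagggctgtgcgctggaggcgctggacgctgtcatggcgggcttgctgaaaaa
Ndufa11: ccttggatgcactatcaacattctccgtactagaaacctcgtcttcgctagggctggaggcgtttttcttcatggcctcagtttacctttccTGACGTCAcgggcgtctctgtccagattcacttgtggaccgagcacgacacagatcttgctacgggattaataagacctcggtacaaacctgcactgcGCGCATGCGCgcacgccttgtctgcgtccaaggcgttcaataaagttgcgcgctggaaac

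Levels are given in CPM, the usual counts scaled to library size, here after TMM scaling. Library totals ran from 25835650 to 37927038 counts. All 12 brown adipocyte markers were detected in each group. Ebf2 itself was not lower in mutant libraries at room temperature (65.2, 45.7 and 38.3 CPM, beside 47.4, 64.1 and 32.0 CPM in control libraries). In the cold the libraries labelled mutant had 28.7, 21.6 and 27.0 CPM and those labelled control 52.3, 42.2 and 41.6 CPM; the log2 fold change was -0.82 ± 0.25 (SE, adjusted p = 0.153). Mutant and control therefore stand for libraries labelled so, and genotype directions rest on the labels. The 25 skeletal muscle markers took 0.154, 0.00991 and 2.29% of counts in mutant and 3.38, 0.012 and 2.42% in control libraries at room temperature, and 0.0238, 0.0454 and 0.727% in mutant and 0.292, 0.0261 and 1.11% in control libraries in the cold.

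Per kilobase of principal transcript, the level averaged over the 12 libraries was highest for Ndufa4 (1301 CPM per kb), Ndufb8 (1092 CPM per kb) and Ndufb9 (960 CPM per kb), and lowest for Ndufs4 (137 CPM per kb), Ndufb4 (133 CPM per kb) and Ndufb2 (69.6 CPM per kb). This order depends on the annotated length, which is 2413 bases for Ndufb2 and 545 for Ndufa11. In control cold libraries these 2 averaged 235 and 223 CPM, but 97.5 and 409 CPM per kb. Within a library the members kept close together. Relative to its own mean over the 12 libraries, a member varied between libraries with a median SD of 0.526 on the log2 scale, and around the median of all members in the same library with a median SD of 0.15. Ndufa6, which holds an acyl carrier protein on the enzyme, followed that median most closely (SD 0.055). Ndufa1, a small X-linked subunit of the membrane arm, followed it least (SD 0.578), and Ndufa3 (0.322), Ndufa7 (0.268) and Ndufb3 (0.261) came next. Of these 4, Ndufa1 lay 1.42 log2 units below the member median in mutant cold library 3 and 0.62 above it in control room temperature library 3.

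**Figure D1:**
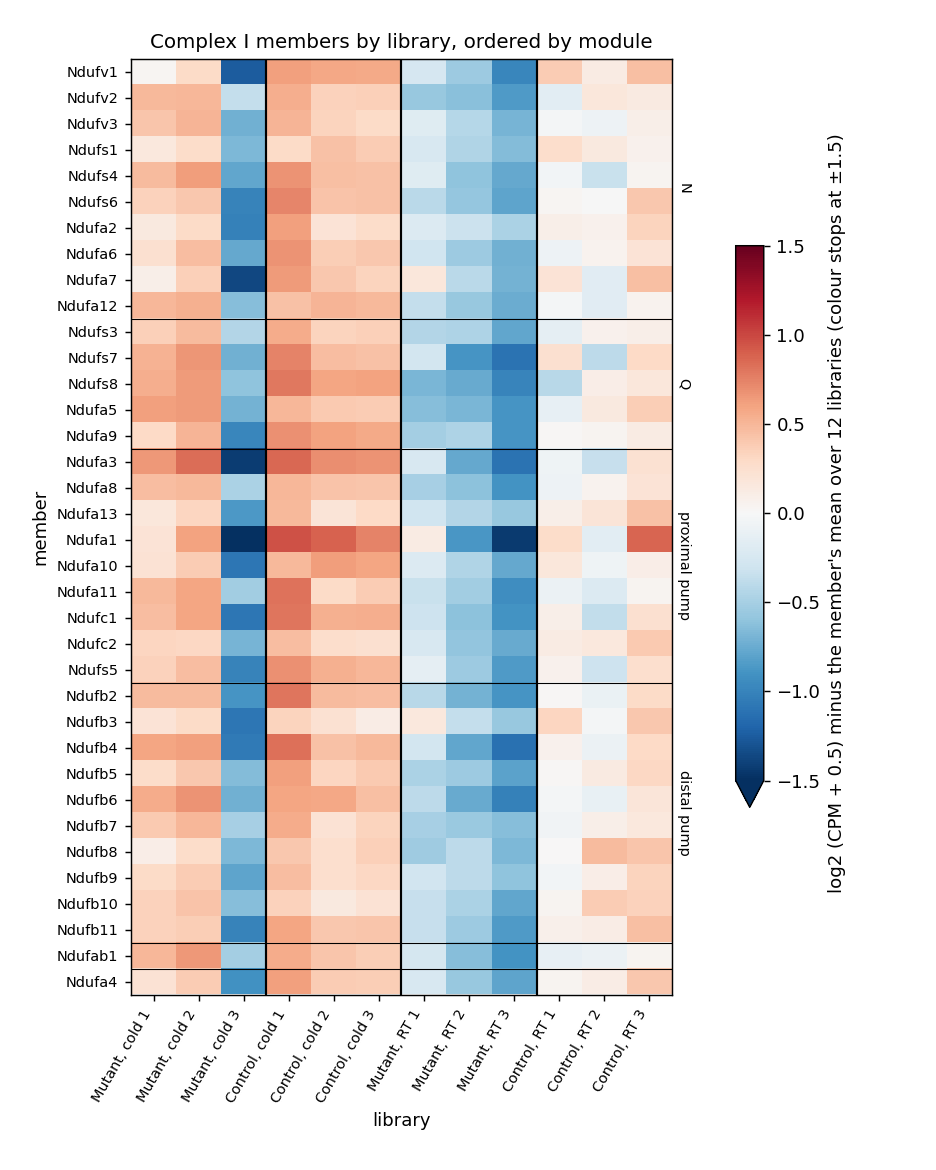
Colour shows the relative log2 level of 36 members (rows, grouped by module) in each of the 12 libraries (columns; RT, room temperature), where 0 is the member's mean over all libraries and the scale stops at ±1.5. Mutant cold library 3 and mutant room temperature library 3 are the bluest columns: of all 37 members 20 are at their lowest in the first and 17 in the other, and 27 are at their highest in control cold library 1.

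Mutant cold library 3 stood apart from its group in every member. Its level was between 0.161 (Ndufa1) and 0.555 (Ndufv2) times the mean of the other 2 mutant cold libraries. The median relative log2 level of the 37 members was 0.34 and 0.48 in mutant cold libraries 1 and 2 but -0.78 in library 3, against 0.61, 0.42 and 0.41 in the control cold libraries. At room temperature it was -0.30, -0.55 and -0.79 in mutant libraries, all below the 0.02, 0.04 and 0.25 of control libraries. The 12 brown adipocyte markers did not all follow. In the same library 8 of them lay below both other mutant cold libraries, among them Ucp1 (5867 CPM, against 10971 and 11675 CPM) and the respiratory chain gene Cox8b (394 CPM, against 2445 and 2906 CPM). Adipoq (887 CPM, against 777 and 695 CPM), Dio2 (449.5 CPM, against 354 and 189.5 CPM) and Ppargc1a (178 CPM, against 104 and 130.4 CPM) lay above both, and Plin1 (1514 CPM, against 1437 and 1522 CPM) between them. The 8 epithelial markers summed to 264 CPM in it and to between 2.72 and 26.2 CPM in the other 11 libraries, led by Krt8 (79.3 CPM) and Krt18 (66.4 CPM), and the 6 fibroblast and preadipocyte markers to 1635 CPM, against 513 and 400 CPM in its group. At room temperature these 6 summed to between 1208 and 1433 CPM in mutant and between 851 and 1470 CPM in control libraries. Col3a1 (1032 CPM) and Col1a1 (384 CPM) made up most of the sum in mutant cold library 3. Dpt (74.0 CPM) lay between its levels in the other mutant cold libraries (91.2 and 61.8 CPM). Results are therefore given with and without mutant cold library 3. In bulk tissue, fewer brown adipocytes and less RNA per brown adipocyte cannot be told apart.

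The median relative log2 level of the members less that of complexes II to V pooled lay between -0.08 and 0.19 in the 12 libraries. Single complexes differed more: complex IV stood at -1.18 in mutant cold library 3, where the members stood at -0.78. Genes of short transcripts outside the chain were also at their lowest in that library. Over 250 genes with a principal transcript under 1000 bases and a mean of at least 50 CPM, the median relative log2 level was -0.58 in mutant cold library 3, against 0.17 and 0.21 in the other mutant cold libraries, and 1626 genes over 3000 bases stood at 0.17 there. At room temperature the short genes stood at 0.03, -0.11 and -0.25 in mutant and 0.04, -0.08 and 0.15 in control libraries, so that they did not follow the members in each library: in mutant library 1 the members stood at -0.30, and in control library 2 at 0.04. Of the 37 members 23 have a principal transcript under 1000 bases, and their median ratio of mutant cold library 3 to its group was 0.401, against 0.443 for the 14 longer ones. The Spearman correlation of length with that ratio over the 37 members was 0.193, a description of members that share these libraries. The part of transcript length in the results below was not tested.

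**Figure D2:**
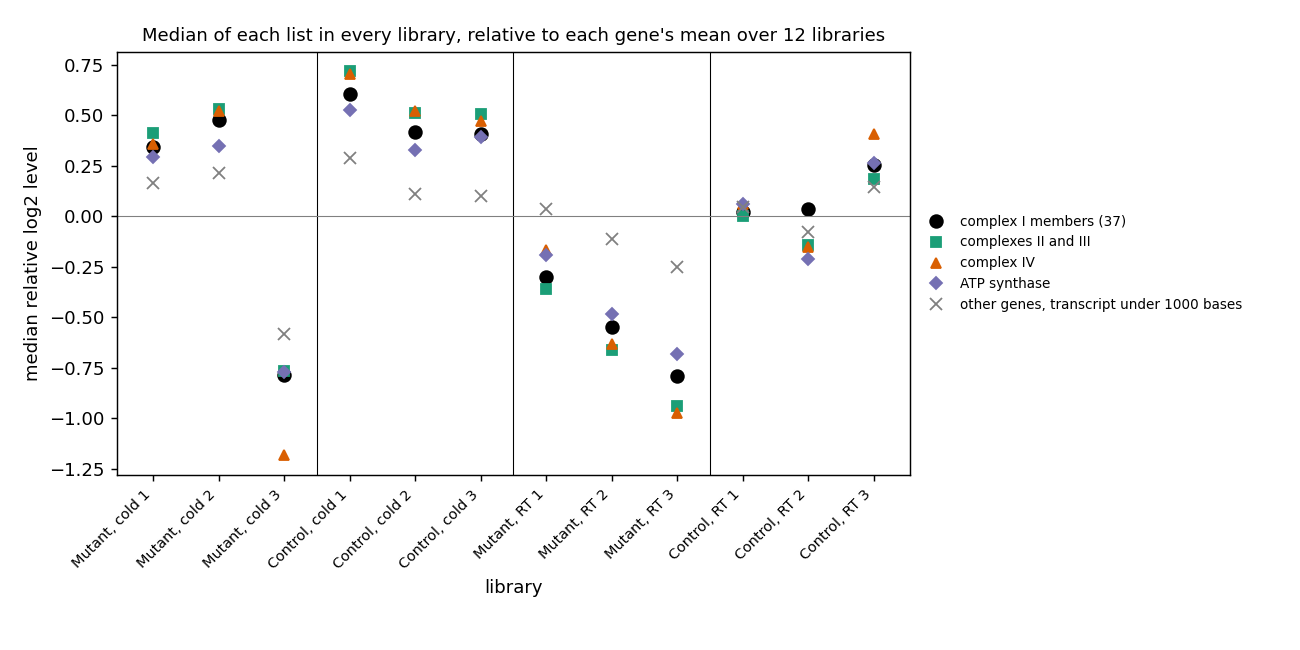
Each symbol is the median, over the genes of a list, of the log2 level relative to the gene's mean over 12 libraries (y axis), by library (x axis; RT, room temperature). Complex I is at -0.78 in mutant cold library 3, where complex IV is lower at -1.18, and at -0.79 in mutant room temperature library 3, and the crosses (250 short genes outside the chain) are lowest in mutant cold library 3 at -0.58.

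At room temperature all 37 members had a lower level in libraries labelled mutant, by a median log2 fold change of -0.67, but 1 was called at an adjusted p below 0.05. Called means this threshold throughout. The median over all genes tested was -0.04, and 54.7% of them were negative. The called member was Ndufb8, an accessory subunit of the distal membrane arm; 2.32% of all genes tested were called lower and 6.24% in either direction. Members ran from -0.97 ± 0.62 (SE, adjusted p = 0.438) for Ndufa1 to -0.40 ± 0.29 (adjusted p = 0.513) for Ndufs4, an N module accessory subunit. The 3 mutant values lay below the 3 control values in 29 of the 37 members, as they did in 11.9% of all genes tested. The 8 with overlapping groups were Ndufa1, Ndufa3, Ndufa7, Ndufb3, Ndufc1, Ndufs4, Ndufs5 and Ndufs7. At an unadjusted p below 0.05 there were 23 members, against 20.1% of all genes tested. For the 250 short genes outside the chain, the median log2 fold change of the same comparison was -0.22.

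Ndufb8 had 492, 543 and 445 CPM in mutant libraries at room temperature, against 714, 988 and 947 CPM in control libraries. The lowest control library was above the highest mutant one, with a log2 fold change of -0.84 ± 0.22 (adjusted p = 0.0475). Ndufb8 shares 134 bases of exon with Gm20538 on the same strand in the GENCODE annotation, and reads there cannot be told apart. Its call was lost in 9 of the 12 fits that left out 1 library. It was also lost with RLE size factors, where the smallest adjusted p of any member was 0.0516, and with the replicate number as a block, where it was 0.0529.

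Among the core subunits of the N module, Ndufv1, which binds NADH and the flavin, had 606, 495 and 367 CPM in mutants and 939, 784 and 989 CPM in controls at room temperature. Its log2 fold change was -0.89 ± 0.31 (adjusted p = 0.129). Ndufv2, the neighbouring iron-sulphur subunit, had 292, 279 and 240.4 CPM in mutants and 388, 488 and 473 CPM in controls, with the second smallest p of the list (-0.73 ± 0.21, adjusted p = 0.0641). Ndufs1, the largest iron-sulphur subunit, had 451, 390.2 and 340.3 CPM in mutants and 641, 589 and 560.5 CPM in controls (-0.60 ± 0.22, adjusted p = 0.133). In these 3 subunits the groups did not overlap, as in 11.9% of all genes tested, and none was called. Ndufs4 had 193, 144 and 128 CPM in mutants and 213, 174 and 225 CPM in controls, and mutant library 1 lay above control library 2.

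The Q module, where ubiquinone is reduced, had a median log2 fold change of -0.73 over its 6 members. All 6 had an unadjusted p below 0.05, against 20.1% of all genes tested, and they share the same libraries. Ndufs7, which carries the last iron-sulphur cluster before ubiquinone, had 243, 160.0 and 137 CPM in mutants and 349, 223 and 363 CPM in controls. Its groups overlapped, through mutant library 1 and control library 2 (-0.79 ± 0.33, adjusted p = 0.205). Ndufs8, a ferredoxin-like subunit, had 165, 157 and 133 CPM in mutants and 199, 284 and 298 CPM in controls (-0.78 ± 0.27, adjusted p = 0.125). Ndufa5, an accessory subunit of the peripheral arm, had 271, 261 and 228 CPM in mutants and 386, 465 and 544 CPM in controls (-0.88 ± 0.29, adjusted p = 0.0973). In both genes each mutant library lay below each control library. Ndufs3, another core subunit of the module, had a log2 fold change of -0.56 ± 0.21 (adjusted p = 0.153), with non-overlapping groups.

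In the membrane arm the median log2 fold change at room temperature was -0.62 over the 9 proximal members and -0.75 over the 10 distal members, against -0.54 in the N module. In the distal part 9 of 10 members had non-overlapping groups, Ndufb3 being the exception, where 11.9% of all genes tested lay lower without overlap. Ndufb5 had 193, 183 and 154 CPM in mutants and 273, 296 and 333 CPM in controls, the third smallest p of the list (-0.76 ± 0.23, adjusted p = 0.0768). Ndufb10 had 287, 263 and 213 CPM in mutants and 376, 478 and 467 CPM in controls (-0.79 ± 0.24, adjusted p = 0.0791). In the proximal part, Ndufa8, a subunit of the intermembrane space side, had 239, 220.4 and 182 CPM in mutants and 320.5, 349.8 and 388 CPM in controls (-0.72 ± 0.22, adjusted p = 0.0818). Ndufa1 had 246, 123 and 82.9 CPM in mutants and 272, 202 and 410.5 CPM in controls, and its groups overlapped. Ndufab1 (-0.52 ± 0.26) and Ndufa4 (-0.71 ± 0.28) had adjusted p-values of 0.294 and 0.173.

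The count of members called lower at room temperature depended on the spread that all 12 libraries share. Without mutant cold library 3, which is in neither group, the log2 fold changes were nearly the same (median -0.67), the standard errors were smaller, and 26 members were called lower, against 4.11% of the 15506 genes then tested. The 11 not called were Ndufa1, Ndufa3, Ndufa7, Ndufa11, Ndufab1, Ndufb3, Ndufc1, Ndufs4, Ndufs5, Ndufs7 and Ndufv3. Ndufa5 then had the smallest adjusted p, 0.00297, and Ndufb8 had 0.00461. The count was 0 without any 1 of mutant room temperature libraries 1, 2 and 3, control room temperature libraries 2 and 3, mutant cold library 1 and control cold libraries 1, 2 and 3. Without the 4 libraries richest in muscle markers (mutant room temperature library 3, control room temperature libraries 1 and 3 and control cold library 3), which leaves 2 mutant and 1 control library at room temperature, the count was 0, the median -0.44 and 36 members were negative. With the muscle share as a covariate the count was 3, with only the 2 groups fitted 5, with DESeq2 10 and with limma-voom and quality weights 33. Over all genes, these fits called 1020, 552, 1699 and 2844, in the same order and in either direction. Those of all 12 libraries were fitted to 15265 genes each, of which DESeq2 at its default settings can leave some without an adjusted p. The fit of only the 2 groups was filtered anew. The 8 lens markers summed to between 0.721 and 2.32 CPM in mutant and between 129 and 576 CPM in control libraries at room temperature, and their part in the result was not tested. In the cold they summed to between 88.9 and 143 CPM in mutant and between 128 and 168 CPM in control libraries. The mutant room temperature libraries also enter the cold comparison in mutants and the difference of the cold responses. The part of these markers there was not tested either.

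**Figure D3:**
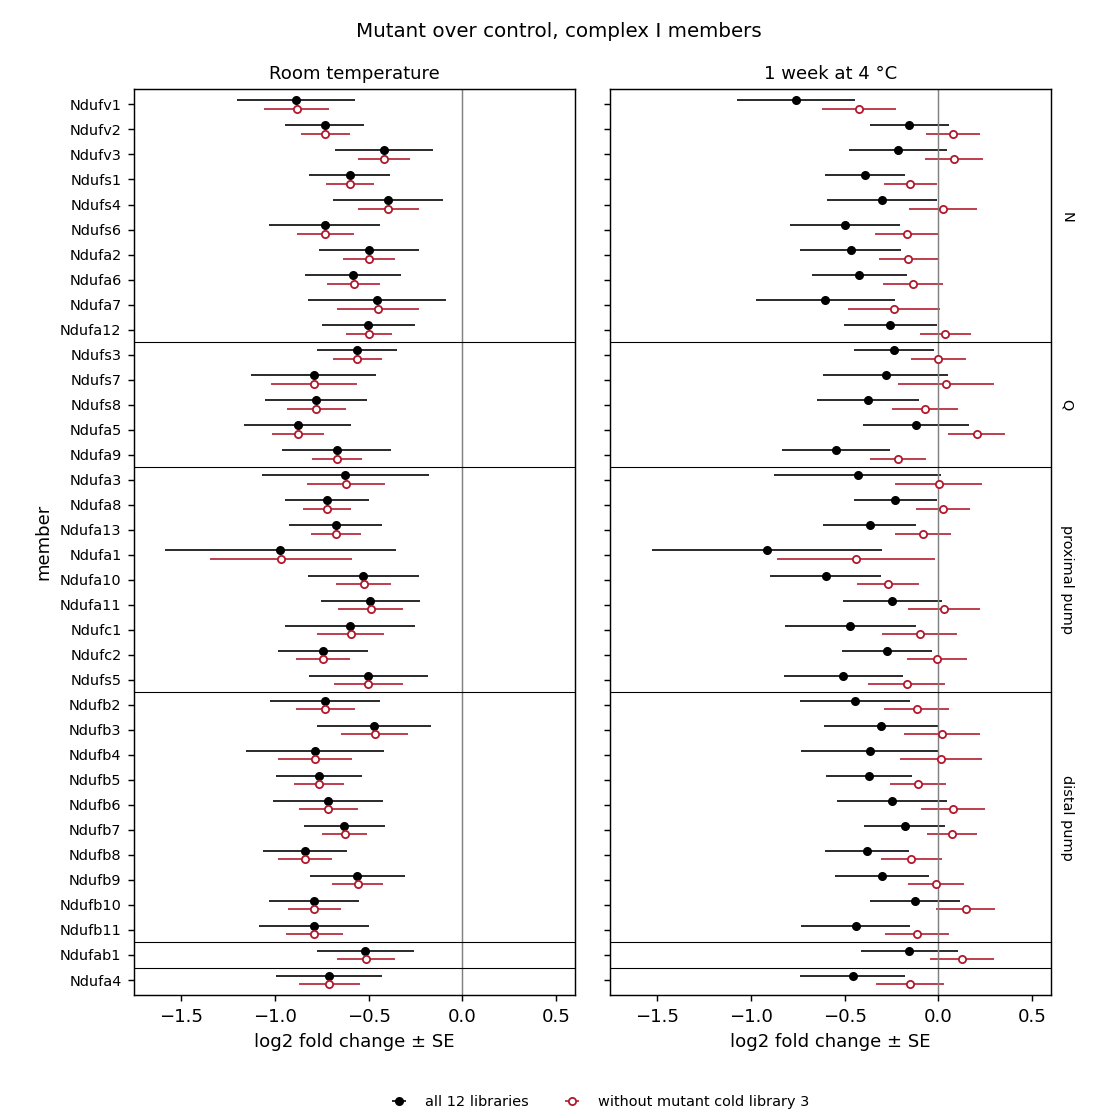
Points are the log2 fold change of mutant over control for 36 members (rows, by module), at room temperature on the left and after 1 week in the cold on the right, with bars of 1 SE; filled symbols use all 12 libraries and open ones leave out mutant cold library 3. All lie left of 0 at room temperature (median of all 37 members -0.67) with either set, whereas in the cold the filled points have a median of -0.37 and the open ones of -0.07.

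In the cold no member was called between mutant and control libraries. All 37 log2 fold changes were negative, where 51.0% of all genes tested were, with a median of -0.37 against -0.01 over all genes tested, and the smallest adjusted p was 0.274, for Ndufv1. By edgeR 1 member had an unadjusted p below 0.05, against 15.3% of all genes tested; the quasi-likelihood call was met by 1.12% of all genes tested, and DESeq2 and limma-voom called 0 members too. The 3 mutant values lay below the 3 control values in 9 members, Ndufa1, Ndufa9, Ndufa10, Ndufs1 and Ndufv1 among them, and in 12% of all genes tested. Without mutant cold library 3 the median was -0.07, 22 members were negative (53.1% of all genes then tested) and 15 positive, no member was called by edgeR, against 0.626% of all genes, and none had an unadjusted p below 0.05, against 12.7%.

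Ndufv1 had 734, 878 and 303 CPM in mutant cold libraries, against 1102, 1075 and 1068 CPM in control cold libraries. All 3 mutant libraries were below the narrow control range, library 3 by the most. The log2 fold change was -0.76 ± 0.31 with all libraries and -0.42 ± 0.20 (adjusted p = 0.404) without library 3. Ndufa10, a membrane arm subunit related to nucleoside kinases, had 556, 626 and 226 CPM in mutants and 671, 741 and 721 CPM in controls in the cold. Its log2 fold change was -0.60 ± 0.30 with all libraries and -0.27 ± 0.17 without library 3. Ndufa5, the member nearest to 0, had 647, 656 and 256 CPM in mutants and 595, 552 and 548 CPM in controls. Mutant cold libraries 1 and 2 lay above all control libraries and library 3 below them, so that the log2 fold change was -0.12 ± 0.28 with library 3 and 0.21 ± 0.15 without it. Ndufb8 had 766, 864 and 445 CPM in mutants and 941, 846 and 916 CPM in controls in the cold (-0.38 ± 0.22, adjusted p = 0.442).

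**Figure D4:**
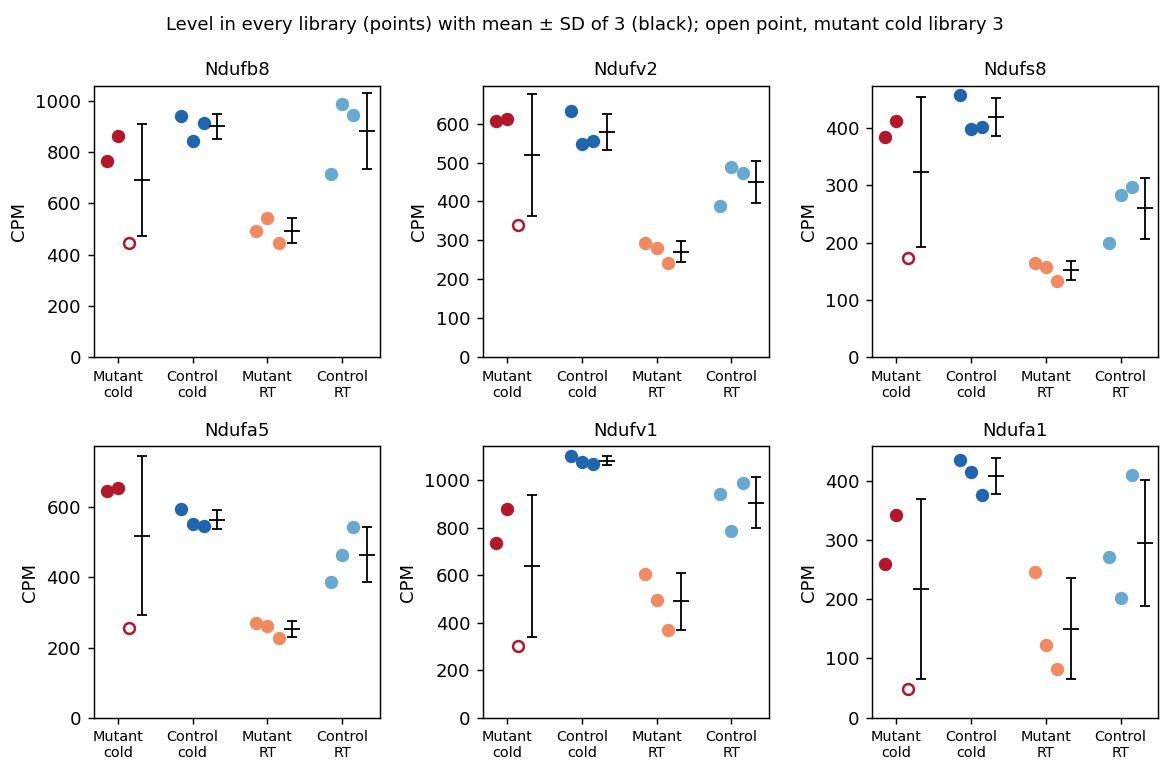
Each panel gives the level of 1 member in CPM (y axis, from 0) in the 3 libraries of each group (x axis; RT, room temperature), with the mean ± SD of 3 in black and mutant cold library 3 as an open point. In all 6 members the open point lies below the other mutant cold libraries and below every control cold library; Ndufa5 has its 2 other mutant cold libraries at 647 and 656 CPM, above the controls, and Ndufv1 has them at 734 and 878 CPM, below the controls.

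Cold exposure went with higher levels in libraries labelled mutant, and 9 members rose: Ndufv2, Ndufs8, Ndufa8, Ndufa5, Ndufb7, Ndufs3, Ndufb6, Ndufab1 and Ndufa11. All 37 log2 fold changes were positive, where 48.8% of all genes tested were, with a median of 0.64 against -0.01 over all genes tested, and 20 had an unadjusted p below 0.05, against 30.9%. Of all genes tested 10.0% were called higher and 17.4% in either direction. The called members were 3 of the 6 in the Q module (Ndufs3, Ndufs8 and Ndufa5), 2 of the 9 proximal ones (Ndufa8 and Ndufa11), 2 of the 10 distal ones (Ndufb6 and Ndufb7), 1 of the 10 in the N module (Ndufv2) and the acyl carrier protein Ndufab1. In 4 members (Ndufa8, Ndufb7, Ndufs8 and Ndufv2) every cold library lay above every room temperature library, as in 16.7% of all genes tested. For the 250 short genes outside the chain the median log2 fold change was 0.08, and 0.28 without mutant cold library 3.

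Ndufv2 had 607, 612 and 338 CPM in cold mutants, against 292, 279 and 240.4 CPM in mutants at room temperature. Even library 3, the lowest of the cold ones, was above all room temperature libraries, and the log2 fold change was 0.94 ± 0.21 (adjusted p = 0.0102). Ndufs8 had 385, 413 and 174 CPM in cold mutants, against 165, 157 and 133 CPM at room temperature. Library 3 was barely above the room temperature range, and the log2 fold change, 1.10 ± 0.28 (adjusted p = 0.0175), was the largest of the list. Ndufa8 had 465, 471 and 242 CPM in cold mutants, against 239, 220.4 and 182 CPM at room temperature (0.88 ± 0.22, adjusted p = 0.0186). The groups were separate by the small step between 242 and 239 CPM.

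Ndufa5 had 647, 656 and 256 CPM in cold mutants and 271, 261 and 228 CPM in mutants at room temperature (1.04 ± 0.29, adjusted p = 0.0274), so library 3 fell within the room temperature range. Ndufb7, a subunit of the intermembrane space face, had 343, 369 and 185 CPM in cold mutants and 184, 177 and 168 CPM at room temperature (0.76 ± 0.22, adjusted p = 0.0311). Ndufs3, a core subunit of the Q module, had 542, 590.1 and 312 CPM in cold mutants and 312, 308 and 247 CPM at room temperature (0.74 ± 0.21, adjusted p = 0.034). Library 3 lay just above the room temperature range in Ndufb7 and at its upper edge in Ndufs3, and inside it in the remaining called members. Ndufb6 had 436, 472 and 179 CPM in cold mutants and 225, 176 and 146 CPM at room temperature (0.99 ± 0.29, adjusted p = 0.037). Ndufab1, which also serves mitochondrial fatty acid and lipoic acid synthesis, had 560.3, 619.9 and 278 CPM in cold mutants and 331, 255 and 212 CPM at room temperature (0.87 ± 0.26, adjusted p = 0.0373). Ndufa11, a membrane arm subunit next to complex III in supercomplexes, had 218, 236 and 109 CPM in cold mutants and 124, 109 and 81.6 CPM at room temperature (0.84 ± 0.26, adjusted p = 0.0469). Of the 12 fits that left out 1 library, the call was lost in 2 for Ndufv2, 4 each for Ndufs8 and Ndufa8, 5 for Ndufa5, 6 for Ndufb7, 8 each for Ndufs3, Ndufb6 and Ndufab1, and 11 for Ndufa11. Of the 10 other alternatives, 5 lost the call of Ndufa11 and 2 that of each of the others. Ndufs3 and Ndufab1 have processed pseudogenes at least 98% identical in GENCODE. These are not rows of the count table, and how reads that match both were counted is not in the sources used here. Exons of genes on the opposite strand overlap Ndufb6 by 257 bases (Smim27), Ndufs3 by 88 (Kbtbd4) and Ndufab1 by 123 (Gm44986) in GENCODE. As the strand setting of the counts is not given, the part of such reads is not known.

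The member nearest to 0 was Ndufa7, with 158, 190.3 and 57.3 CPM in cold mutants and 167, 112 and 90.9 CPM at room temperature (0.13 ± 0.37, adjusted p = 0.845). Cold library 1 lay inside the room temperature range, library 2 above it and library 3 below it. The core subunits Ndufv1 and Ndufs1 had log2 fold changes of 0.38 ± 0.31 and 0.42 ± 0.22 (adjusted p = 0.447 and 0.215), and Ndufs7 had 0.99 ± 0.34 (adjusted p = 0.0641). Without mutant cold library 3, 34 members were called higher, against 13.0% of all genes then tested, all but Ndufa1, Ndufa7 and Ndufb3. The median was then 0.95, members ran from 0.47 (Ndufb3) to 1.41 (Ndufa3), and in 36 members both remaining cold libraries lay above every room temperature library, as in 26.5% of all genes tested. The count was 0 without mutant room temperature library 3 or mutant cold library 1, 1 without mutant room temperature library 2 or mutant cold library 2, 4 without control cold library 3 and 5 without control cold library 1 or 2. It was 0 when only the mutant libraries were fitted and 0 without the 4 libraries richest in muscle markers, which leaves 3 cold and 2 room temperature libraries of the mutants.

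**Figure D5:**
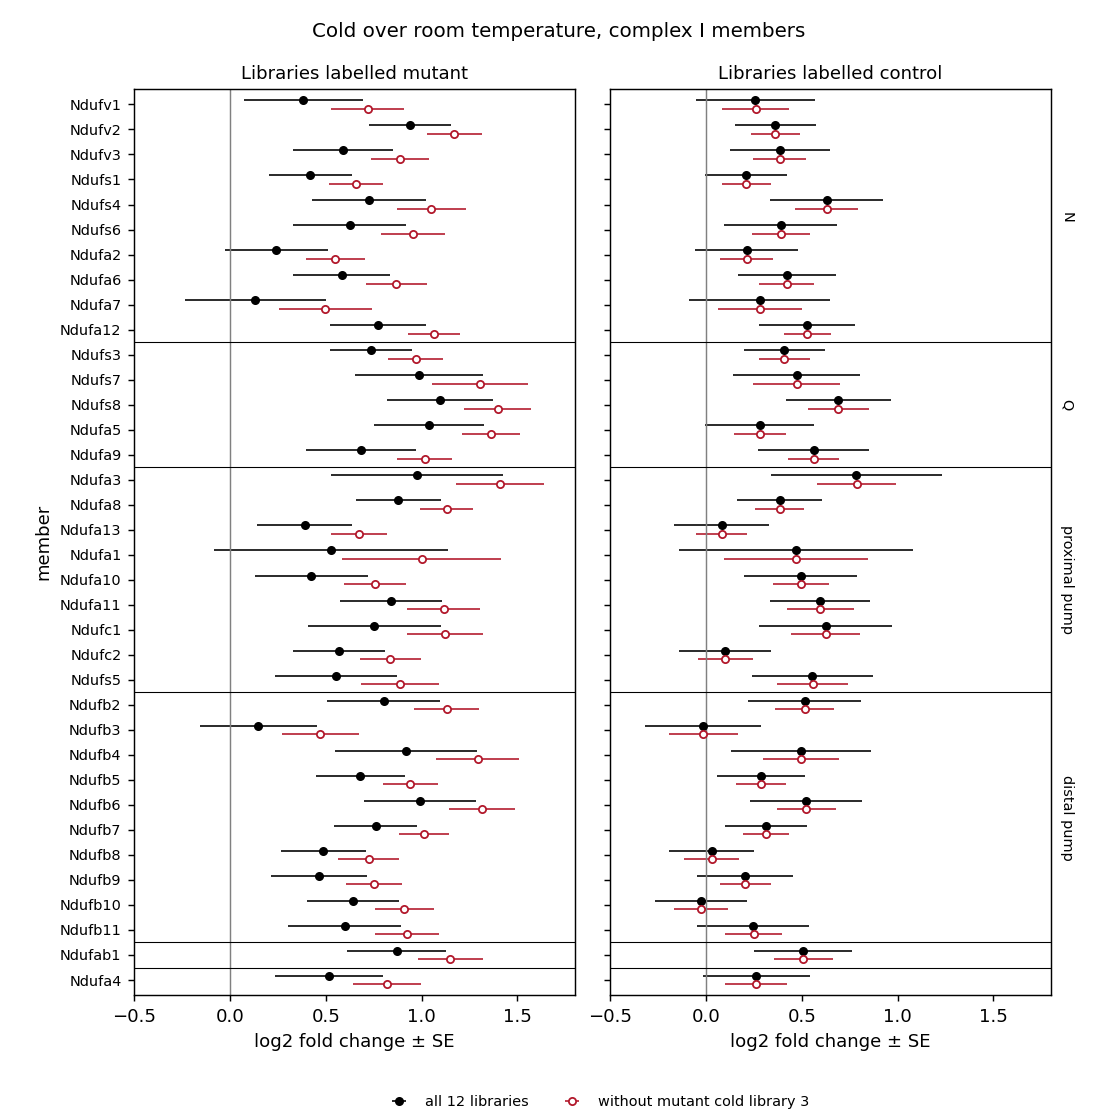
Points are the log2 fold change of cold over room temperature for 36 members (rows, by module) in mutant libraries on the left and control libraries on the right, with bars of 1 SE; filled symbols use all 12 libraries and open ones leave out mutant cold library 3. In mutants the points move right when that library is left out (medians 0.64 and 0.95); in controls the filled and open points coincide (median 0.39), and the open bars are shorter.

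In control libraries no member was called between cold and room temperature, where 4.31% of all genes tested were called higher and 6.62% in either direction. The median log2 fold change was 0.39 and 35 members were positive, where 48.7% of all genes tested were, Ndufb3 and Ndufb10 being at -0.02. By edgeR 2 members, Ndufs8 and Ndufa11, had an unadjusted p below 0.05, against 23.6% of all genes tested. In 26 members every cold control lay above every room temperature control, as in 18.9% of all genes tested. Ndufs8 had 458, 399 and 403 CPM in cold controls and 199, 284 and 298 CPM in controls at room temperature, a clear separation with a log2 fold change of 0.69 ± 0.27 (adjusted p = 0.151). Ndufa11 had 275, 190.1 and 203 CPM in cold controls and 147, 135 and 160.3 CPM at room temperature (0.60 ± 0.26, adjusted p = 0.195). Ndufs4 had 351, 301 and 296 CPM in cold controls and 213, 174 and 225 CPM at room temperature (0.63 ± 0.30, adjusted p = 0.221). Ndufb8 had 941, 846 and 916 CPM in cold controls and 714, 988 and 947 CPM at room temperature, with overlapping groups (0.03 ± 0.22, adjusted p = 0.954). Ndufb10 had 466, 407 and 425 CPM in cold controls and 376, 478 and 467 CPM at room temperature (-0.02 ± 0.24, adjusted p = 0.964). With the smaller spread of the fit without mutant cold library 3, 8 members were called higher in cold controls, among them Ndufa3, Ndufa11, Ndufa12, Ndufs4 and Ndufs8, against 7.27% of all genes then tested. DESeq2 called 0 members, limma-voom with quality weights 3 and the fit of only the 2 control groups 4, each higher in the cold. Over all genes, limma-voom called 3402 of the 15265 tested in either direction, and the fit of only the 2 control groups called 1184.

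The difference between the cold response of mutants and that of controls was tested directly. It was positive in 34 of 37 members, where 52.0% of all genes tested were, with a median of 0.25, and no member was called, against 0.478% of all genes tested. No member had an unadjusted p below 0.05, against 12.2% of all genes tested. DESeq2 called 0 members while limma-voom with quality weights called 6, and 1121 over all genes in either direction. The smallest p-values were those of Ndufb10 (0.67 ± 0.34, adjusted p = 0.466) and Ndufv2 (0.58 ± 0.30, adjusted p = 0.475). Both comparisons inside this difference share their libraries with the comparisons above. Without mutant cold library 3 the median was 0.56, all 37 were positive (49.5% of all genes then tested), 24 had an unadjusted p below 0.05 (against 14.8% of all genes tested), and 1 was called, against 0.587%. That member was Ndufa5, at 1.08 ± 0.20 (adjusted p = 0.0459); its log2 fold change with cold was then 1.36 ± 0.15 in mutants and 0.28 ± 0.14 in controls. For the 250 short genes outside the chain the median of the same difference was -0.03 with all libraries and 0.18 without that library.

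Assembly factors, which build complex I and are not part of it, were measured for 20 of 21 listed genes. In mutants 6 of the 20 rose in the cold, where 10.0% of all genes tested were called higher: Ndufaf4 (1.13 ± 0.16, adjusted p = 0.000784), Tmem186 (0.85 ± 0.13, adjusted p = 0.00114), Ecsit (0.78 ± 0.13, adjusted p = 0.00228), Dmac2 (listed as Atp5sl), Ndufaf1 and Tmem70. In controls Ndufaf4 rose in the cold (0.73 ± 0.16, adjusted p = 0.021), 1 of the 20, a share near the 4.31% of all genes tested. Ndufaf4 had 111, 111 and 78.6 CPM in cold mutants and 50.3, 40.9 and 46.5 CPM in mutants at room temperature, so that mutant cold library 3 lay above the room temperature range. At room temperature Dmac2 was lower in mutants (-0.84 ± 0.21, adjusted p = 0.0338), and it was the only one of the 20 called there, against 6.24% of all genes tested in either direction; in the cold none was called by edgeR between genotypes, with 3 of 20 at an unadjusted p below 0.05, near the 15.3% of all genes tested. The median log2 fold change of the 20 between genotypes at room temperature was -0.30, beside -0.67 for the subunits. For the lists most like complex I, that median was -0.68 for complexes II and III (14 genes), -0.75 for complex IV (14 genes) and -0.54 for ATP synthase (18 genes, 1 called lower, against 2.32% of all genes tested).

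Among 6 regulators known to act on respiratory genes, the estrogen-related receptors Esrra and Esrrg were called lower in mutants at room temperature, by -0.69 ± 0.15 (adjusted p = 0.0187) and -1.06 ± 0.18 (adjusted p = 0.0049). Of all genes tested 2.32% were called lower there, and 10.0% were called higher in the cold in mutants. Esrra and Esrrg both rose in the cold in mutants (1.21 ± 0.15 and 1.03 ± 0.18, adjusted p = 0.000437 and 0.00219), as did Ppargc1b (0.97 ± 0.22, adjusted p = 0.0102) and Gabpa (0.73 ± 0.16, adjusted p = 0.00811). Ppargc1a and Nrf1 were called in none of the 5 comparisons. In mutant cold library 3, where the subunits stood at 0.161 to 0.555 times the other mutant cold libraries, Esrra had 349 CPM and Esrrg 27.0 CPM, against 458 and 476 CPM of Esrra and 29.8 and 26.4 CPM of Esrrg in the other mutant cold libraries. Gabpa lay below both of those libraries (96.5 CPM, against 142 and 150 CPM). Ppargc1b (139 CPM, against 99.3 and 118 CPM), Ppargc1a (178 CPM, against 104 and 130 CPM) and Nrf1 (14.7 CPM, against 12.4 and 11.6 CPM) lay above both.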

How the data were processed

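RNA of 12 brown adipose tissue samples was extracted with TRIzol and purified on columns, and libraries were made with a NEBNext Ultra kit, per the labels' protocols. The authors deposited 1 table of raw counts per gene, and the submitters' processing notes name STAR, featureCounts and mm9; the sources used here give no versions, annotation or strand setting. Genes with low counts were removed with filterByExpr (minimum count 10, minimum total 15), counts were scaled by TMM, and edgeR 4.0.16 (R 4.3.3) quasi-likelihood F-tests were run on 1 fit of all 12 libraries, with a coefficient for each group. Contrasts tested, 5 in all, were the genotype effect under either housing, the cold effect in mutants and in controls, and the difference between the last pair, with Benjamini-Hochberg adjustment over 15265 genes and a threshold of 0.05. The SE of a log2 fold change is its size divided by the square root of F. Relative log2 levels are log2 of CPM plus 0.5 less the gene's mean. DESeq2 1.42.0, limma 3.58.1 (voom with quality weights), other scalings and filters, a replicate block, a muscle covariate and leaving out libraries were alternatives. The procedure was tested on simulated data.

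The members and gene lists were chosen with earlier results of these data known. Named with values were members called in any contrast, those with the smallest p in each contrast and the one least like the list, the core subunits, Ndufs4, Ndufb8, Ndufab1 and Ndufa4, and the highest and lowest per length; Ndufa1, Ndufb5, Ndufb10 and other extremes were added after their values were seen. Transcript lengths, overlaps and near copies came from GENCODE M21, promoter windows from RefSeq (GRCm38.p6), neither being the build of the table, so they describe genes by name only. All columns of the table were used. Of the 37 members, 1 is counted in the totals and medians of the list but is not reported here by itself, in text or figures. At 25835650 to 37927038 counts per library and 1730 or more counts per member, the spread between libraries, not counting error, sets the precision.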

Additional observations from a re-analysis of the deposited data

How the results depend on the processing

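Mutant against control at room temperature, where 1 member was called, gave 0 with RLE size factors, without the filter, with a non-robust fit, with the replicate number as a block and without the 4 muscle-rich libraries. It gave 3 with the muscle covariate (1020 of all genes), 5 when only the groups compared were fitted (552), 10 with DESeq2 (1699) and 33 with limma-voom (2844). Leaving out 1 library gave 0 to 26 called and a median from -0.757 to -0.573; without the muscle-rich libraries the median was -0.44. In the cold no alternative called a member between genotypes (0 to 0 when leaving out 1 library), and the median ran from -0.569 without mutant cold library 2 to -0.072 without library 3. The sign there turned with limma-voom in Ndufa5 (0.14), Ndufv2 (0.051) and Ndufab1 (0.064), and without mutant cold library 3 in these and in Ndufs7 and Ndufs4; leaving out 1 library, values ran from -0.317 to 0.21 in Ndufa5, from -0.285 to 0.076 in Ndufv2, from -0.362 to 0.13 in Ndufab1, from -0.516 to 0.041 in Ndufs7 and from -0.546 to 0.025 in Ndufs4. Cold against room temperature in controls gave 3 called with limma-voom (3402 of all genes), 4 when only the groups compared were fitted (1184 of all genes), and 0 to 8 when leaving out 1 library, with a median from 0.32 to 0.458. There Ndufb10 ran from -0.126 to 0.039, being positive without control room temperature library 2 or 3, and Ndufb8 from -0.10 to 0.118, being negative without control room temperature library 1 or control cold library 1 and also with limma-voom (-0.022), the muscle covariate (-0.012), without the muscle-rich libraries (-0.14) and when only the groups compared were fitted (-0.0014).

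Cold against room temperature in mutants gave 15 with DESeq2 (3426 of all genes), 33 with limma-voom (5075 of all genes), 0 without the muscle-rich libraries, 0 when only the mutant groups were fitted, and 0 to 34 when leaving out 1 library, with a median from 0.411 to 0.955. Ndufa7 turned to -0.049 without the muscle-rich libraries and ran from -0.20 without mutant cold library 2 to 0.497 without library 3, being negative also without mutant room temperature library 3. The difference of the cold responses gave 6 called (1121 of all genes) and a median of 0.66 with limma-voom, and 0 to 1 called with a median from 0.060 to 0.560 when leaving out 1 library. Limma-voom weighs libraries by their spread and the fits by group pool fewer libraries; otherwise the cause was not tested. Of the other values of single named members under the alternatives, 1093 kept their direction and stayed called or not called. Another 91 lost their call and 49 gained one.

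Labels number the replicates 1 to 3 in each group, and whether the numbers pair the samples was unsettled: the correlation of deviations was above 0.1 for each number between genotypes at room temperature (0.165, 0.719 and 0.488) and between temperatures in controls (0.142, 0.647 and 0.456) on the scale of log2 CPM with a prior count of 1, where number 1 was at -0.0306 between genotypes in the cold and 0.0272 between temperatures in mutants. On the log2 (CPM + 1) scale it was so only between temperatures in mutants (0.264, 0.186 and 0.620), number 1 being at 0.0577, 0.0851 and 0.0602 between genotypes at room temperature, in the cold and between temperatures in controls. On both scales only number 2 correlated best with its own number between genotypes at room temperature and between temperatures in controls. Between genotypes in the cold and between temperatures in mutants, only number 3 did. With the replicate block 0 members were called between genotypes at room temperature (smallest adjusted p = 0.0529), 0 in the cold, 0 in controls, 9 in mutants and 0 for the difference of the cold responses.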

Other observations

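Ndufa4l2, a paralogue of Ndufa4 outside the rule that chose the members, had between 2.88 and 11.3 CPM in the 12 libraries and was called in none of the 5 comparisons.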
